A study of Homo sapiens with 44 samples.

Results

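The genes described here act in the control of epithelial sodium transport by corticosteroids, and 8 were followed: the kinases SGK1, SGK2 and SGK3, the leucine zipper protein TSC22D3 (also called GILZ), the sodium channel subunits SCNN1A and SCNN1G, the ubiquitin ligase NEDD4L and the sodium pump subunit ATP1B1. They were taken by gene symbol from the 25690 genes of an RNA-seq table of HEK293-GR cells and the 25689 gene symbols of one of A549 cells, where the transcript with the most reads stood for each symbol. All 8 symbols were found in both tables. The choice rule names the genes and uses no measured value, but the genes were proposed with earlier results of these data known, and read numbers chose between transcripts of one gene.

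In sodium-absorbing epithelia such as the renal collecting duct and the airway, sodium enters across the apical membrane through the epithelial sodium channel ENaC, built from alpha (SCNN1A), beta (SCNN1B) and gamma (SCNN1G) subunits, and leaves through the basolateral sodium pump, of which ATP1B1 is the beta1 subunit. NEDD4L (also called NEDD4-2) ubiquitinates ENaC and lowers its number at the cell surface, and SGK1 phosphorylates NEDD4L and weakens that contact. Aldosterone and glucocorticoids act through the mineralocorticoid and glucocorticoid receptors, and SGK1 and TSC22D3 are long-known early targets of both hormones. IRF2BP2, the protein targeted in the study, is a transcriptional coregulator first described as a partner of the factor IRF2.

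Of the 44 samples in the series, 24 are RNA of A549 cells, a human lung adenocarcinoma line, 16 are RNA of HEK293-GR cells, and 4 are chromatin of HEK293-GR cells precipitated with an antibody against IRF2BP2. HEK293-GR cells are isogenic Flp-In HEK293 cells that express the glucocorticoid receptor (GR) constitutively, and the values used here do not tell transcripts of the introduced receptor gene from those of the cells' own. All RNA samples came from cells kept in medium stripped of steroids and transfected for 72 h with 20 nM of small interfering RNA, either a pool against IRF2BP2 (siIRF2BP2) or a non-targeting pool (siNON), so no group was left untransfected. For the last 6 h, HEK293-GR cells received vehicle (ethanol) or 100 nM of the synthetic glucocorticoid dexamethasone (dex), and A549 cells received vehicle, dex, 10 ng/ml of the inflammatory cytokine tumor necrosis factor alpha (TNF), or both agents (dex + TNF). The ChIP samples, 2 per condition, came from cells kept in medium without steroids and given vehicle or 100 nM dex for 1 h. Each A549 group had 3 samples and each HEK293-GR RNA group had 4 labelled samples, of which replicates 1 to 3 have values and 4 samples were not analysed here. The series text calls the replicates biological, but no label names separate cultures, and p-values then measure only the spread between these samples.

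The 12 HEK293-GR libraries held 18245000 to 28545000 tags (to the nearest 1000) and the 8 A549 columns, each pooled over a group by the authors, 35804000 to 56864000 tags. HEK293-GR levels are given as FPKM over exon length, which can be compared between genes. The A549 FPKM were scaled by the genomic span of a transcript (in 98.6% of transcripts), so A549 levels are given as RPM, the reads of a gene scaled to the tags of its column, and compared only within a gene, with no replicate error. IRF2BP2 mRNA was lower after its knockdown in HEK293-GR cells under vehicle (20.3 to 25.0 FPKM with siNON, 11.8 to 13.7 with siIRF2BP2) and under dex (19.3 to 20.6 and 9.64 to 11.1). For A549 cells, IRF2BP2 had in the authors' deposited table log2 fold changes of -0.31, -0.66, -0.40 and -0.62 under vehicle, dex, TNF and dex + TNF, each with an FDR under 0.05, so transcript remained in every knockdown group. All 6 HEK293 marker genes reached 1 FPKM in at least 1 HEK293-GR library, and 3 of them reached 1 RPM in at least 1 A549 column. All 7 A549 marker genes reached 1 RPM in A549 cells, and 4 of them (KRT8, KRT18, EPCAM and ALDH3A1) reached 1 FPKM in HEK293-GR cells, with a summed level of all 7 of 145.9 to 197.7 FPKM beside 64.0 to 99.5 for the HEK293 markers, while AKR1C1 and FGA stayed under 0.1 FPKM. Of 6 markers of collecting duct principal cells, HSD11B2 and NR3C2 reached 1 FPKM in HEK293-GR cells, and AQP2 and AVPR2 stayed under 0.1 FPKM in all 12 libraries (summed level of the 6, 5.68 to 8.95 FPKM). In these bulk libraries, fewer cells that express a gene and less RNA per cell cannot be told apart.

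The DNA before the transcription starts of the 2 genes best known as early steroid targets is shown for a view of their promoters, since both genes rose with dex in both lines. RefSeq (build GRCh38.p14) gave promoter entries for 4 of the 8 genes: 3 starts for SGK1, 4 for TSC22D3, 5 for NEDD4L and 1 for ATP1B1. The 250 bases before 2 of the SGK1 starts and 1 of the TSC22D3 starts follow, all on the minus strand, with capitals at the letters TATAAA, or TTTATA where the match lies on the opposite strand.
SGK1, chr6:134177862-134178111: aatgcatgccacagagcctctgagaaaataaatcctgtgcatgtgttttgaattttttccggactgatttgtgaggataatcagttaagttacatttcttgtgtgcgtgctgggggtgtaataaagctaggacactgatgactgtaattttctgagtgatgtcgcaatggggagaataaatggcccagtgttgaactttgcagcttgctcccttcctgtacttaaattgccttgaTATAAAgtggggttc
SGK1, chr6:134174867-134175116: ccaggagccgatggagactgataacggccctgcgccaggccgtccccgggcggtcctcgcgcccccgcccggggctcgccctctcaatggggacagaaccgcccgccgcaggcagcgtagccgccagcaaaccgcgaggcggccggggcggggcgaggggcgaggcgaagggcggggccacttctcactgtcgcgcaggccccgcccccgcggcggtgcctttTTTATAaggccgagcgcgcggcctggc
TSC22D3, chrX:107717063-107717312: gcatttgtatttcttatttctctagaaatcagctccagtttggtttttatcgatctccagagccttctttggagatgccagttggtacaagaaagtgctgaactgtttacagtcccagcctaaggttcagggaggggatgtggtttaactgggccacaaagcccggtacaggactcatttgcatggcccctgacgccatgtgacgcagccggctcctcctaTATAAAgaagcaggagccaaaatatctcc
The matches begin at bases -15, -27 and -29 from the start. The windows were picked for a match near the start: TATAAA occurred in 4 of the 13 windows of these genes, all 3 of SGK1 (at -96 in the one not shown) and 1 of the 4 of TSC22D3, and 11.5% of the 35116 RefSeq promoter windows of 300 bases (250 before and 50 after a start) hold TATAAA on either strand. None of the 13 windows of these genes held the palindromic glucocorticoid response element (the half-site AGAACA, 3 free bases and the reverse complement of the half-site, present in 0.00285% of windows), a looser form of it with the half-site GNACA (0.39%) or the NF-kappaB consensus element (0.191%), each searched on both strands. Elements this rare are seldom met in 13 windows, so their absence says little, and DNA outside the windows was not searched. The half-site AGAACA, which is contained in the palindromic element, occurred in 1 SGK1 window (the start at the first sequence above, at base 6 after it) and in 1 NEDD4L window, and in 14.8% of all windows.

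SGK1 had the largest log2 fold change with dex of the 7 tested genes in HEK293-GR cells, although in FPKM TSC22D3 rose from a mean of 68.7 to 98.8 with siNON and SGK1 from 2.18 to 29.2. Its FPKM in replicates 1 to 3 was 2.18, 1.89 and 2.45 with siNON and vehicle and 29.0, 30.4 and 28.1 with siNON and dex. With siIRF2BP2 it was 2.93, 2.90 and 3.38 under vehicle and 27.3, 28.2 and 25.6 under dex. The dex and vehicle libraries did not overlap for either small interfering RNA. The limma log2 fold change (on log2 of FPKM + 0.1, 12 libraries, adjusted p from limma with Benjamini-Hochberg adjustment throughout) was 3.69 ± 0.09 (SE, adjusted p = 1.46e-13) with siNON and 3.10 ± 0.09 (adjusted p = 1.37e-12) with siIRF2BP2. At adjusted p under 0.05, 20.7% of the 15594 genes tested were called for the dex response with siNON (10.9% higher, 9.82% lower) and 10.5% for that with siIRF2BP2 (5.86% higher, 4.59% lower). The log2 response was 0.59 ± 0.13 lower with siIRF2BP2 by limma's interaction term (unadjusted p = 3.69e-04, adjusted p = 0.262), a difference that did not pass the threshold over all genes, where 0.0128% of genes did. The knockdown raised SGK1 under vehicle (log2 fold change 0.48 ± 0.09, limma adjusted p = 0.00331), with all 3 siIRF2BP2 libraries above all 3 siNON libraries, and under dex the groups overlapped (-0.11 ± 0.09, limma adjusted p = 0.363). In a fit of the 2 vehicle groups alone the limma adjusted p of the first was 0.098.

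SGK3, a related kinase held at endosomes by its phosphoinositide-binding PX domain, was higher after the knockdown. With vehicle its FPKM was 4.83, 5.19 and 7.76 with siNON and 7.48, 9.71 and 7.91 with siIRF2BP2, and the ranges overlapped through siNON replicate 3. With dex it was 4.79, 4.44 and 3.80 with siNON and 7.44, 6.99 and 7.10 with siIRF2BP2, without overlap. SGK3 rose by a log2 fold change of 0.72 ± 0.15 under dex (limma adjusted p = 0.00197) and 0.51 ± 0.15 under vehicle (limma adjusted p = 0.0293). The vehicle call was lost in the fit of those 2 groups alone, without the filter on low values, and without any one of 4 libraries (siNON replicate 1 or 2, siIRF2BP2 replicate 2 or 3), with limma adjusted p up to 0.143. The dex response of SGK3 with siNON was -0.41 ± 0.15 (limma adjusted p = 0.0582), which passed the threshold without siNON vehicle replicate 1 or 2 (limma adjusted p down to 0.0181), and with siIRF2BP2 it was -0.21 ± 0.15 (limma adjusted p = 0.532). SGK3 shares exons on the same strand with the annotated read-through gene C8orf44-SGK3, so how the counting divided reads between them makes its level uncertain.

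SGK2, the third kinase of the family, was near the limit of detection in HEK293-GR cells. Its 12 libraries held 2 to 12 reads (0.042 to 0.259 FPKM), which did not pass the filter of 10 reads in at least 3 libraries, so it was not tested and 7 of the 8 genes were. On the FPKM scale the order of the kinases under vehicle with siNON was SGK3 (5.93 ± 1.60, SD, n = 3), SGK1 (2.18 ± 0.28) and SGK2 (0.134 ± 0.112), and under dex it was SGK1 (29.2 ± 1.14), SGK3 (4.35 ± 0.50) and SGK2 (0.0913 ± 0.0215). No neighbours in either order overlapped in their libraries.

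TSC22D3 was the most abundant of the 8 genes in HEK293-GR cells and rose with dex. Its FPKM was 63.8, 80.5 and 61.7 with siNON and vehicle and 100.05, 96.2 and 100.2 with siNON and dex. With siIRF2BP2 it was 62.8, 62.4 and 71.7 under vehicle and 96.6, 106.1 and 75.9 under dex. The dex libraries lay above the vehicle libraries in both sets, the nearest pair being 75.9 against 71.7 FPKM. Dex raised TSC22D3 by a log2 fold change of 0.53 ± 0.13 in siNON cells (limma adjusted p = 0.00639) and of 0.49 ± 0.13 in siIRF2BP2 cells (limma adjusted p = 0.0166). The second call was lost in a fit of its 2 groups alone (limma adjusted p = 0.0821) and without any one of 4 libraries, replicates 1 and 2 of either treatment (limma adjusted p up to 0.0803). The knockdown values of TSC22D3 were -0.06 ± 0.13 under vehicle and -0.10 ± 0.13 under dex (limma adjusted p = 0.779 and 0.528), with overlapping libraries.

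Read density in HEK293-GR cells had a similar maximum in every library, and TSC22D3 stayed below that maximum. The gene with the most reads per base of exon reached 2.83 to 3.11 reads per base in every one of the 12 libraries, although their tags ranged from 18245000 to 28545000. TSC22D3 held 1.36 to 1.56 reads per base under vehicle and 1.94 to 2.17 under dex, whereas SGK1 held at most 0.731. In the 3 siIRF2BP2 dex libraries (18245000, 20622000 and 28545000 tags) the coefficient of variation of TSC22D3 was 5.89% in reads per base and 16.7% in FPKM, so its FPKM was lowest in the deepest library, and for SGK1 the same values were 18.8% and 4.93%. The part of read density in the size of the TSC22D3 response was not tested. In the A549 columns, each pooled over 3 samples, TSC22D3 reached 12.1 pooled reads per base. That value uses the exon length of the HEK293-GR transcript (1947 bases) and is not a density per library.

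**Figure D1:**
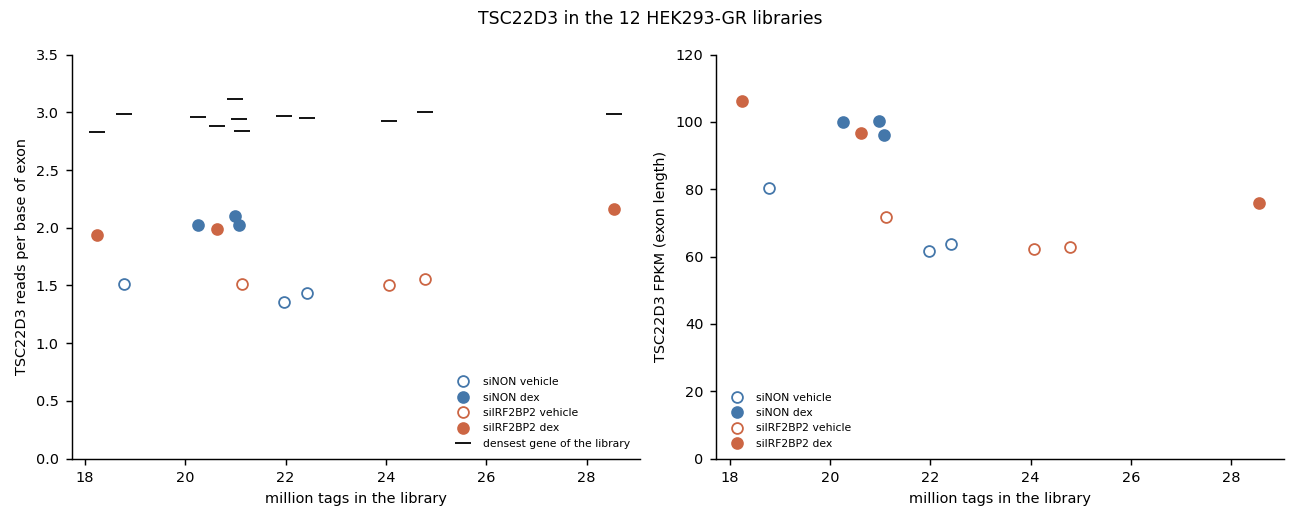
TSC22D3 reads per base of exon (left, with the densest gene of each library as a dash) and TSC22D3 FPKM (right) against the depth of each of the 12 HEK293-GR libraries, open circles for vehicle and filled circles for dex. The densest gene stays between 2.83 and 3.11 reads per base at all depths, and in the deepest library TSC22D3 has 2.17 reads per base and 75.9 FPKM.

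Both sodium channel subunits were at very low levels under vehicle and higher with dex, and under dex both were lower with siIRF2BP2. SCNN1A, the pore-forming alpha subunit needed for a working channel, was at 0.283, 0.273 and 0.179 FPKM with siNON and vehicle and at 1.12, 0.959 and 0.992 with siNON and dex. With siIRF2BP2 it was at 0.219, 0.276 and 0.186 FPKM under vehicle and at 0.556, 0.529 and 0.497 under dex. All dex libraries were above all vehicle libraries, and the siIRF2BP2 dex libraries were below the siNON dex libraries. These levels rest on 13 to 22 reads per vehicle library and 32 to 75 per dex library. Dex raised SCNN1A by 1.71 ± 0.17 on the log2 scale in siNON cells (limma adjusted p = 1.55e-06) and by 0.95 ± 0.17 in siIRF2BP2 cells (limma adjusted p = 0.00101), on a scale that understates changes of such low genes. The knockdown lowered SCNN1A under dex (log2 fold change -0.84 ± 0.17, limma adjusted p = 0.00182), and under vehicle the value was -0.07 ± 0.17 (limma adjusted p = 0.8). The difference between the dex responses was -0.77 ± 0.24 (unadjusted p = 0.00598, limma adjusted p = 0.718) and did not pass over all genes.

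SCNN1G, the gamma subunit that proteases cleave to raise channel opening, was at 0.064, 0.092 and 0.065 FPKM with siNON and vehicle and at 0.609, 0.626 and 0.534 with siNON and dex. With siIRF2BP2 it was at 0.069, 0.012 and 0.082 FPKM under vehicle and at 0.278, 0.252 and 0.432 under dex. Vehicle libraries held only 1 to 6 reads, against 39 to 46 in the siNON dex and 16 to 43 in the siIRF2BP2 dex libraries. SCNN1G thus passed the filter only through the dex groups, where it was high, so its dex log2 fold changes of 1.99 ± 0.21 with siNON and 1.45 ± 0.21 with siIRF2BP2 (limma adjusted p = 3.16e-06 and 1.29e-04) are a description. Under dex the knockdown lowered SCNN1G (log2 fold change -0.73 ± 0.21, limma adjusted p = 0.0128), without overlap of the libraries. That call was lost with a pseudocount of 0.01 (limma adjusted p = 0.109) and without siIRF2BP2 dex replicate 1 or 2 (limma adjusted p up to 0.0532), the 2 libraries at 0.278 and 0.252 FPKM.

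NEDD4L was higher by small steps with dex and with the knockdown. Its FPKM was 7.31, 7.66 and 6.79 with siNON and vehicle, 8.41, 8.48 and 8.98 with siNON and dex, 8.71, 8.49 and 9.41 with siIRF2BP2 and vehicle, and 9.73, 10.4 and 9.88 with siIRF2BP2 and dex. The lowest group did not overlap with any other, and siNON with dex overlapped with siIRF2BP2 with vehicle. The knockdown raised it by 0.29 ± 0.07 under vehicle and 0.21 ± 0.07 under dex (limma adjusted p = 0.0181 and 0.034), and dex raised it by 0.25 ± 0.07 with siNON (limma adjusted p = 0.0279) and by 0.17 ± 0.07 with siIRF2BP2, which did not pass (limma adjusted p = 0.194). These calls were close to the threshold: that under dex was lost without any single one of its 6 libraries (limma adjusted p from 0.0519 to 0.108), that of dex with siNON in the fit of 2 groups alone and without siNON vehicle replicate 3 or any one of the 3 dex libraries (up to 0.123), and that under vehicle in the fit of 2 groups (0.132) and without siIRF2BP2 replicate 3 (0.0633).

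ATP1B1 stayed level in HEK293-GR cells. Its 12 libraries ranged from 16.5 to 19.2 FPKM, and its log2 fold changes ran from -0.03 ± 0.06 (dex with siIRF2BP2) to 0.10 ± 0.06 (knockdown under vehicle), none past the threshold (limma adjusted p from 0.316 to 0.936 over the 4 comparisons). The siIRF2BP2 libraries lay just above the siNON libraries, without overlap, under vehicle (17.9 to 19.2 against 16.5 to 17.7 FPKM) and under dex (17.48 to 18.7 against 16.6 to 17.47).

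Counted together, SGK1, TSC22D3, SCNN1A and NEDD4L were higher with dex and siNON among the 6 tested genes that did not owe their test to the dex groups (10.9% of all genes higher, 9.82% lower), and SGK1, TSC22D3 and SCNN1A with siIRF2BP2 (5.86% higher, 4.59% lower). The knockdown called 3 of 7 genes higher and none lower under vehicle, where 15.5% of all genes were called (8% higher, 7.48% lower). Under dex it called 2 higher (SGK3 and NEDD4L) and 2 lower (SCNN1A and SCNN1G), where 39.7% of all genes were called (22.4% higher, 17.3% lower), so 4 of 7 genes stand beside a background of 39.7%. In a fit of the 2 vehicle groups alone no gene of the set was called. None of the 7 was called by limma for the difference of the dex responses, and 2 of them (SGK1 and SCNN1A) had an unadjusted p under 0.05.

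**Figure D2:**
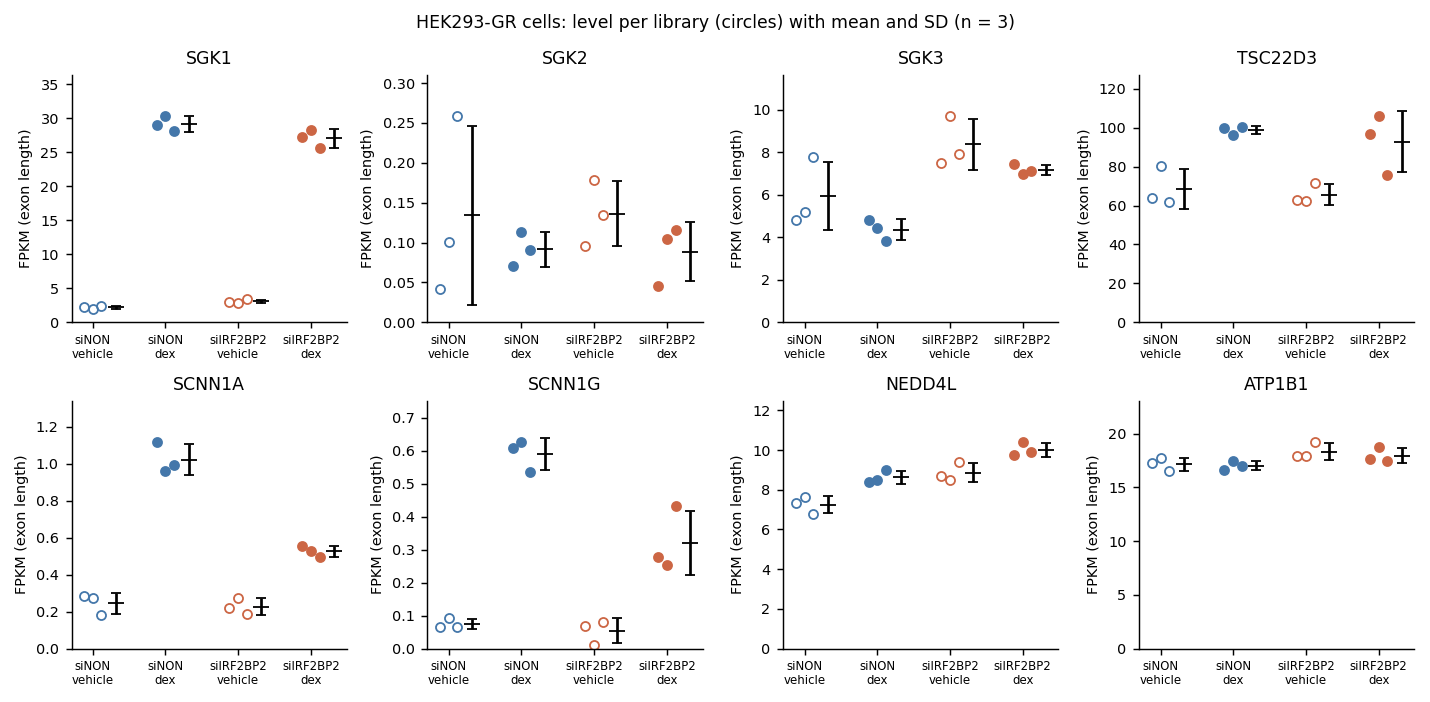
FPKM of the 8 genes in each HEK293-GR library (circles, open for vehicle and filled for dex, blue for siNON and orange for siIRF2BP2) with the mean and SD of each group (n = 3), each axis starting at 0. SGK1 goes from 1.89 to 3.38 FPKM under vehicle to 25.6 to 30.4 under dex, and SCNN1A and SCNN1G are lower with siIRF2BP2 than with siNON under dex.

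**Figure D3:**
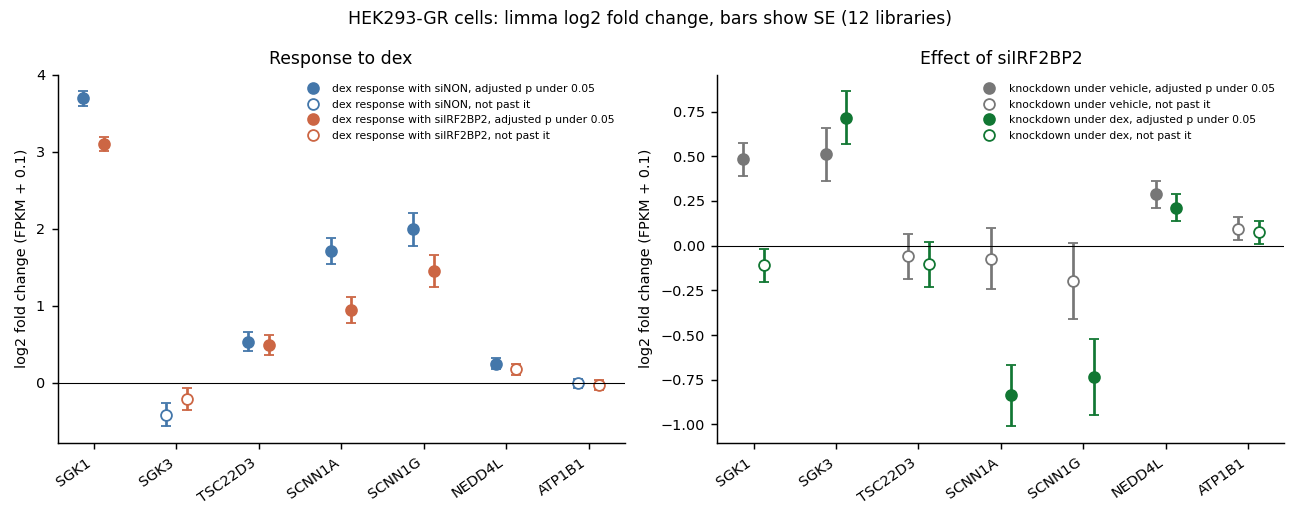
Limma log2 fold changes (FPKM + 0.1) of the 7 tested genes in HEK293-GR cells with their SE, for the response to dex (left) and for siIRF2BP2 against siNON (right), filled where the adjusted p is under 0.05. SGK1 has the highest log2 fold change with dex (3.69 and 3.10), and SGK3 and the channel subunits lie on opposite sides of 0 for the knockdown under dex.

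In A549 cells TSC22D3 rose with dex and was lower after the knockdown under all 4 treatments. With siNON its pooled level was 66.6 RPM under vehicle, 413.7 with dex, 51.2 with TNF and 310.3 with dex + TNF. With siIRF2BP2 it was 28.1 RPM under vehicle, 322.3 with dex, 10.5 with TNF and 218.5 with dex + TNF. The lowest level was thus that of TNF alone with siIRF2BP2, and dex raised TSC22D3 above its vehicle level also where TNF was present. In the authors' deposited table, the log2 fold change of TSC22D3 with dex was 2.70 with siNON (FDR 2.8e-117) and 3.57 with siIRF2BP2 (FDR 5.01e-311). The knockdown lowered TSC22D3, with log2 fold changes of -1.40 under vehicle, -0.53 with dex, -2.39 with TNF and -0.61 with dex + TNF in the authors' deposited table (FDR from 2.91e-83 to 7.68e-07). TNF lowered TSC22D3 with siIRF2BP2 (log2 fold change -1.27, FDR 3.59e-20), and with siNON the value was -0.28 (FDR 0.0732) in the authors' deposited table. Adding TNF to dex lowered it as well (log2 fold change -0.37 with siNON and -0.44 with siIRF2BP2, FDR 0.0113 and 1.6e-09, the authors' deposited table). For the dex response with siNON the authors' deposited tables gave TSC22D3 2.70 in A549 cells and 0.51 in HEK293-GR cells, and SGK1 1.10 and 3.72. Read density in the HEK293-GR libraries had a similar maximum at every depth (2.83 to 3.11 reads per base), and its part in the TSC22D3 value there was not tested. Whether effects differed from each other or between the lines was not tested, since the pooled columns have no replicate values.

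SCNN1G reached the 1 RPM mean required of the symbols compared only through the A549 columns with dex, so it is left out of the counts between treatments. In the authors' deposited table, 3 of the other 7 genes were higher and none lower with dex and siNON in A549 cells (FDR under 0.05), where 12% of 13594 symbols were past it (6.96% higher, 5.05% lower). With dex and siIRF2BP2, 4 of the 7 were higher and 1 lower, where 28.1% of symbols were past it (15.5% higher, 12.5% lower). The test behind that FDR is not given in the sources used here.

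SGK1 rose with dex in A549 cells and had no response to TNF alone past the FDR. Its pooled level was 20.8, 42.1, 20.5 and 47.3 RPM with siNON under vehicle, dex, TNF and dex + TNF, and 26.8, 47.2, 23.1 and 52.7 with siIRF2BP2. The log2 fold change of SGK1 with dex was 1.10 with siNON (FDR 1.04e-17) and 0.88 with siIRF2BP2 (FDR 1.34e-23) in the authors' deposited table. With TNF the authors' deposited table gave SGK1 0.07 and -0.09 (FDR 0.935 and 0.663), and for the knockdown it gave 0.25, 0.02, 0.09 and 0.10 over the 4 treatments (FDR from 0.0525 to 1). Taken for the shortest SGK1 transcript, the first of these passed (0.26, FDR 0.0389).

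The other kinases moved apart. SGK3 was at 8.53, 9.57, 8.53 and 8.08 pooled RPM with siNON and at 15.3, 16.2, 12.9 and 14.4 with siIRF2BP2 (vehicle, dex, TNF, dex + TNF), so each siIRF2BP2 column was above each siNON column. The knockdown raised SGK3 by 0.66, 0.59, 0.52 and 0.76 in the authors' deposited table (FDR from 3.02e-08 to 6.01e-04), and no treatment moved it past the FDR. SGK2, hardly detected in HEK293-GR cells, was at 12.9, 14.0, 6.29 and 8.28 pooled RPM with siNON and at 16.9, 19.4, 5.01 and 6.79 with siIRF2BP2. Its columns with TNF were lower than those without. The authors' deposited table gave SGK2 a log2 fold change with TNF of -0.96 with siNON (FDR 2.28e-09) and -1.66 with siIRF2BP2 (FDR 1.05e-24).

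Both channel subunits were higher with dex in A549 cells, and they differed with TNF. SCNN1A was at 9.34, 29.8, 5.58 and 18.3 pooled RPM with siNON and at 11.9, 43.1, 5.68 and 22.5 with siIRF2BP2 (vehicle, dex, TNF, dex + TNF). SCNN1G was at 0.034, 6.83, 0.376 and 18.1 with siNON and at 0.034, 3.35, 0.137 and 10.6 with siIRF2BP2. Adding TNF to dex thus went with less SCNN1A and more SCNN1G for both small interfering RNAs. In the authors' deposited table the change from dex to dex + TNF was -0.64 and -0.82 for SCNN1A (siNON FDR 9.96e-04, siIRF2BP2 FDR 1.48e-17) and 1.46 and 1.76 for SCNN1G (FDR 1.63e-16 and 3.48e-26). TNF alone lowered SCNN1A, with log2 fold changes of -0.64 and -0.93 in the authors' deposited table (FDR 3.12e-04 and 1.44e-10).

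The fold of SCNN1G over vehicle cannot be fixed in A549 cells, because its vehicle columns hold 1 to 2 reads with siNON and 1 read with siIRF2BP2. The ratio of pooled levels of dex to vehicle was 200.0 with siNON (95% exact interval 53.4 to 15407) and 98.0 with siIRF2BP2 (22.0 to 5017), and that of TNF to vehicle 11 (2.47 to 934) and 4 (0.576 to 249.7). These intervals cover counting error only. With dex, where the siNON and siIRF2BP2 columns hold at least 388 and 120 reads of SCNN1G, and with dex + TNF, at least 887 and 379, the levels are better fixed. The knockdown lowered SCNN1G, with log2 fold changes of -1.15 with dex and -0.86 with dex + TNF in the authors' deposited table (FDR 1.4e-08 and 2.34e-07), while SCNN1A had 0.45 (FDR 0.0021) and 0.27 (FDR 0.112) there. In HEK293-GR cells both subunits were lower after the knockdown under dex, so the direction for SCNN1A with dex was opposite in the 2 lines, a difference that was not tested across the tables. SCNN1A overlaps LTBR on the other strand at its first bases (6484534 to 6484905 for the HEK293-GR transcript). The transcript used for A549 cells reaches further, to 6486523, and its overlap was not measured. No source used here says whether reads were counted by strand.

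NEDD4L rose with TNF in A549 cells. Its pooled level was 76.4, 89.6, 142.5 and 113.6 RPM with siNON and 68.6, 102.1, 136.8 and 139.7 with siIRF2BP2 (vehicle, dex, TNF, dex + TNF). Both columns with TNF alone were above both vehicle columns and both dex columns. The log2 fold change of NEDD4L with TNF was 0.99 with siNON (FDR 6.29e-23) and 1.13 with siIRF2BP2 (FDR 9.58e-54) in the authors' deposited table. With dex the authors' deposited table gave NEDD4L 0.30 (FDR 0.0641) with siNON and 0.62 (FDR 8.14e-16) with siIRF2BP2, and for the knockdown -0.29 under vehicle (FDR 0.00459) and 0.22 with dex + TNF (FDR 0.0346). Adding dex to TNF lowered NEDD4L with siNON (log2 fold change -0.32, FDR 0.00607), and with siIRF2BP2 the value was 0.05 (FDR 0.908) in the authors' deposited table.

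ATP1B1 was at 485.8, 355.5, 371.3 and 294.8 pooled RPM with siNON and at 560.7, 368.3, 463.8 and 289.5 with siIRF2BP2 (vehicle, dex, TNF, dex + TNF), lowest with both agents in each set. The authors' deposited table gave ATP1B1 -0.62 (FDR 1.29e-09) and -0.81 (FDR 4.25e-34) for dex + TNF against vehicle, and for dex -0.33 (FDR 0.0618) with siNON and -0.54 (FDR 2.98e-19) with siIRF2BP2. Its last bases overlap NME7 on the other strand.

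For the other A549 comparisons, the counts of genes past the FDR in the authors' deposited table (of the 7 without SCNN1G between treatments, of all 8 for the knockdown) stand beside the share of all symbols higher and lower. TNF against vehicle had 1 gene higher and 3 lower with siNON (22.6% of symbols past the FDR, 11.7% higher and 10.8% lower) and 1 higher and 3 lower with siIRF2BP2 (43%, 21.6% and 21.3%) in the authors' deposited table. For dex + TNF against vehicle the authors' deposited table had 4 higher and 2 lower with siNON (24.2%, 13.2% and 11%) and 4 higher and 2 lower with siIRF2BP2 (47.6%, 24.8% and 22.8%). For dex + TNF against TNF it had 3 higher and 2 lower with siNON (19.3%, 10.7% and 8.63%) and 3 higher and 1 lower with siIRF2BP2 (28.4%, 15.3% and 13.1%). For dex + TNF against dex it had 1 higher and 3 lower with siNON (12%, 7.22% and 4.78%) and 2 higher and 4 lower with siIRF2BP2 (35.3%, 19.7% and 15.5%). The knockdown had 1 higher and 2 lower under vehicle (40.3%, 19% and 21.3%), 3 and 2 with dex (37.2%, 17.8% and 19.4%), 2 and 2 with TNF (45.7%, 23.2% and 22.5%) and 2 and 2 with dex + TNF (42.4%, 21.2% and 21.2%), so 3 to 5 of the 8 genes stand beside 37.2 to 45.7% of all symbols. Without SCNN1G the knockdown had 1 of 7 genes lower with dex, with TNF and with dex + TNF, and the counts of higher genes were the same. With TNF, SCNN1G held 16 to 17 pooled reads with siNON and 6 to 7 with siIRF2BP2. The comparisons share control columns. The authors' scaling differed from that of the pooled columns by a median log2 shift of up to 0.131 over all symbols, so a pooled ratio and a fold change in the authors' deposited table can differ by that size through scaling.

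**Figure D4:**
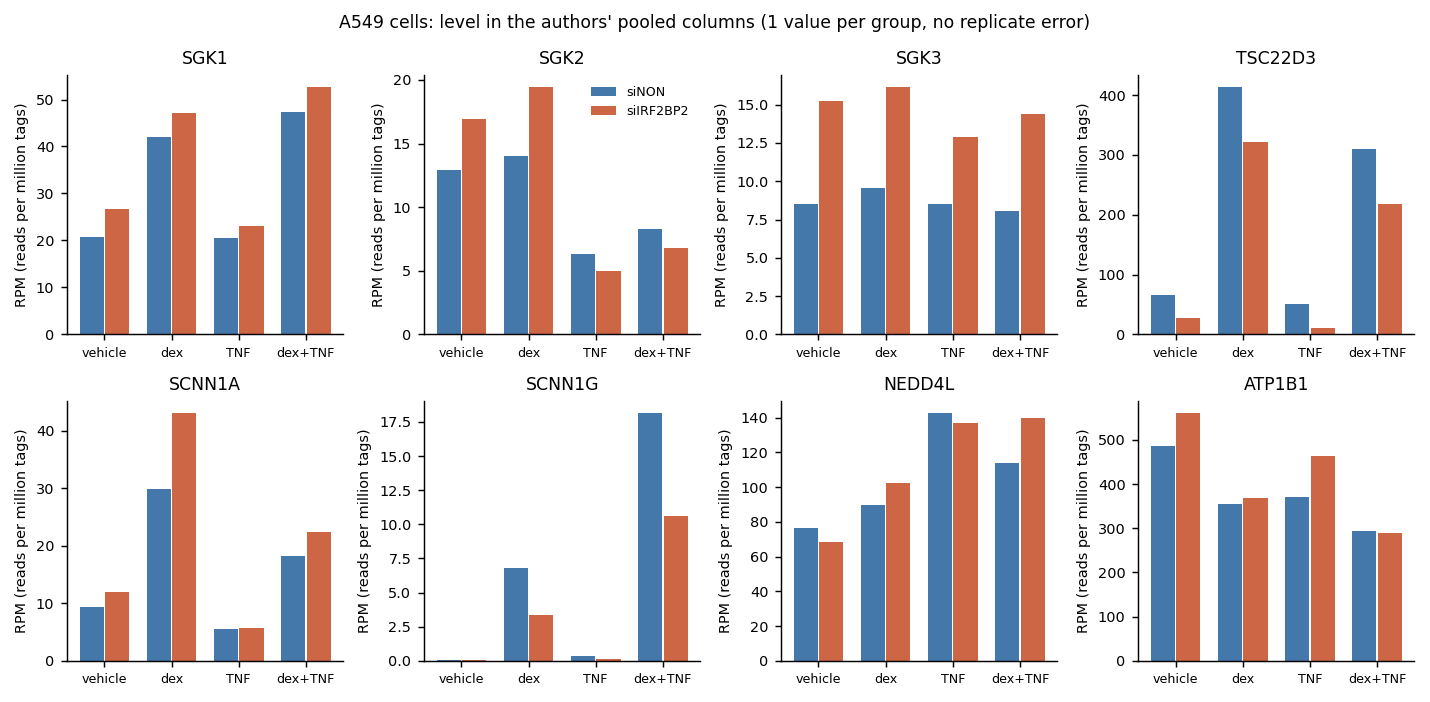
Level of the 8 genes in the 8 pooled A549 columns as RPM, bars from 0, blue for siNON and orange for siIRF2BP2. TSC22D3 is below siNON in each siIRF2BP2 column, SGK3 is above it, and SCNN1G has its highest level (18.1) with dex + TNF and siNON.

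**Figure D5:**
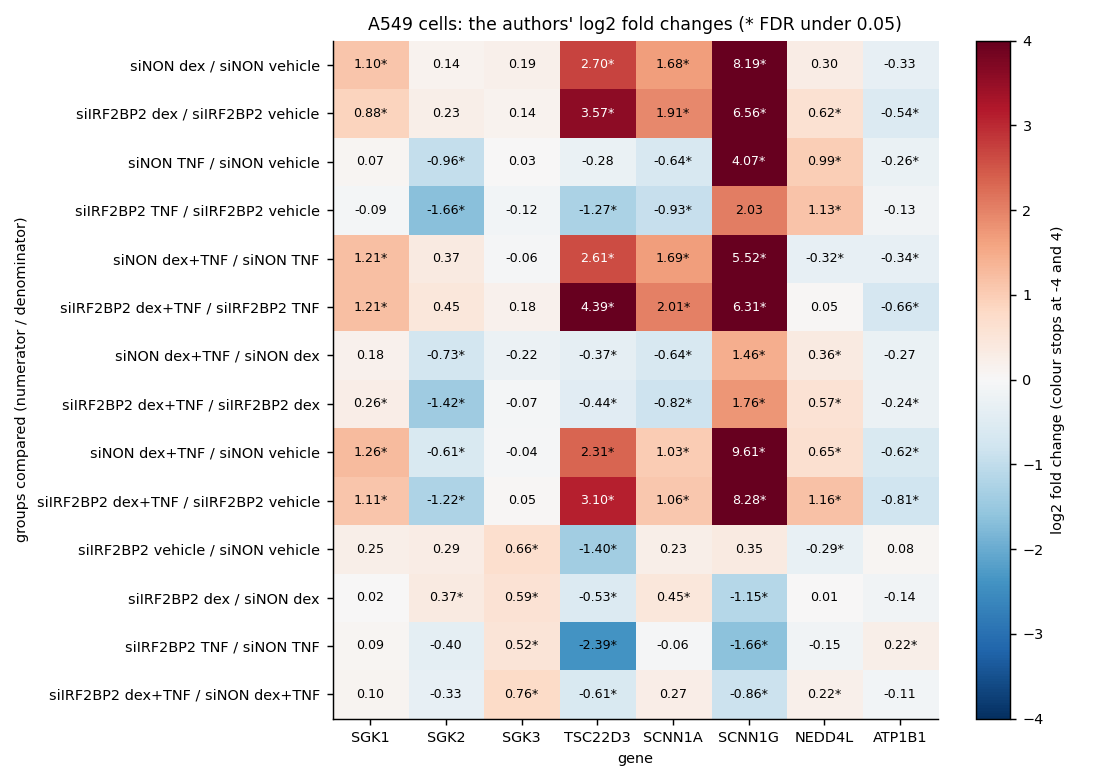
Log2 fold changes of the authors' deposited table for the 8 genes in the 14 A549 comparisons, with an asterisk where the FDR is under 0.05 and the colour held at 4 beyond that size. SGK3 has an asterisk in the 4 knockdown comparisons only, and TSC22D3 has negative values in all 4 of them.

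Around these genes, 61 further genes of corticosteroid access, SGK signalling, ENaC processing, ubiquitin control, the sodium pump and the WNK pathway were listed, of which 50 passed the HEK293-GR filter. SLC12A3 passed only through the dex groups (0 to 2 reads per vehicle library) and is left out of the dex counts. With dex and siNON 13 of the other 49 were higher and 3 lower (10.9% and 9.82% of all genes, median log2 fold change 0.09, 0.02 over all tested genes), and with dex and siIRF2BP2 10 were higher and 1 lower (5.86% and 4.59% of all genes, medians 0.04 and 0.02). In HEK293-GR cells the leading gene of the list was CNKSR3, a scaffold that brings SGK1 and NEDD4L to the channel, which rose from 9.45 ± 1.16 to 43.1 ± 1.12 FPKM (SD, n = 3, log2 fold change 2.19 ± 0.09, limma adjusted p = 1.69e-11) with siNON and by 1.98 ± 0.09 with siIRF2BP2 (limma adjusted p = 8.23e-11). FKBP5, a co-chaperone that lowers hormone binding by the receptors, rose by 1.29 ± 0.08 and 1.18 ± 0.08, and NDRG1, a phosphorylation target of SGK1, by 0.84 ± 0.11 and 1.03 ± 0.11 (limma adjusted p from 8.12e-09 to 2.72e-05 for the 4 values). NR3C2, the mineralocorticoid receptor itself, fell with dex and siNON from 3.45 ± 0.12 to 1.71 ± 0.05 FPKM (-0.97 ± 0.11, limma adjusted p = 6.21e-06). With siIRF2BP2 it was called lower as well (3.86 ± 0.32 to 1.88 ± 0.13 FPKM). SLC9A2, a sodium-proton exchanger, rose with dex and siIRF2BP2 (1.34 ± 0.14, limma adjusted p = 4.80e-06). With dex and siNON it was called higher as well (1.05 to 1.52 FPKM under vehicle, 2.22 to 2.72 under dex).

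The knockdown called 2 of the 50 listed genes higher and 7 lower under vehicle and 7 higher and 9 lower under dex in HEK293-GR cells, where 15.5% and 39.7% of all genes were called (medians -0.03 and -0.12, 0.03 and 0.00 over all tested genes). HSD11B2, the enzyme that inactivates cortisol and so keeps it off the mineralocorticoid receptor, fell from 3.61 ± 0.28 to 2.19 ± 0.19 FPKM under vehicle and from 6.13 ± 0.22 to 3.49 ± 0.06 under dex (log2 fold changes -0.70 ± 0.10 and -0.79 ± 0.10, limma adjusted p = 4.44e-04 and 7.56e-05). KLHL3, the adaptor that marks WNK kinases for degradation, rose by 0.68 ± 0.11 and 0.60 ± 0.11 (limma adjusted p = 0.00131 and 0.00119). Under dex ATP1B2, another beta subunit of the pump, fell by 0.72 ± 0.15 on the log2 scale and SLC9A2 rose by 0.83 ± 0.14 (limma adjusted p = 0.0019 and 6.84e-04). Both were also called in the same direction under vehicle. No gene of the list was called by limma for the difference of the dex responses, and 0 had an unadjusted p under 0.05.

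In A549 cells 45 listed genes had a mean of at least 1 RPM, USP2 only through the columns with dex. With dex and siNON 10 of the other 44 were higher and 1 lower in the authors' deposited table, where 6.96% and 5.05% of all symbols were (median 0.03, -0.01 over all symbols). FKBP5 led with 4.11 (21.4 to 354.5 pooled RPM), and the ubiquitin ligase NEDD4 (1.05) and the pump subunit ATP1B3 (0.66) rose as well in the authors' deposited table (FDR from 7.78e-189 to 7.82e-08). For the knockdown, the sodium-potassium-chloride cotransporter SLC12A2 had the largest change under each treatment among listed genes past the FDR with a mean pooled FPKM of at least 1, at -0.96, -1.25, -1.18 and -1.33 under vehicle, dex, TNF and dex + TNF in the authors' deposited table (FDR from 4.55e-48 to 5.1e-27).

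The genes most like SGK1 over the 12 HEK293-GR libraries, by Pearson correlation of log2(FPKM + 0.1) among 12950 genes, were F3 (0.997), TIPARP (0.997), PHLDA1 (0.997), ARMC12 (0.997) and PHACTR3 (0.996). Their dex log2 fold changes with siNON were 2.88, 3.03, 2.96, 4.77 and 3.87, and the libraries fall into vehicle and dex sets, so the correlation describes a shared 2-level pattern. For TSC22D3 they included PDHA1 (0.978), COQ10A (0.978), VIMP (0.975) and EIF4A3 (0.975), with dex log2 fold changes of 0.20 to 0.45. These correlations are over the same libraries, so the points share their depth beside the dex pattern.

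IRF2BP2 ChIP peaks, 1108 called under vehicle and 1400 under dex with 1 list per condition, lay within 100 kb of a start of 1 of the 8 genes. That gene was NEDD4L in both conditions, a count close to the share of all 25689 genes (8.15% under vehicle, 10.3% under dex). NEDD4L is also annotated with 10 transcripts, and a gene with several starts has more sequence within 100 kb of one. On build hg19, the vehicle peaks at chr18:55810514-55810856, chr18:55827903-55828245 and chr18:55922129-55922471 lay within the annotated span of NEDD4L (chr18:55711610-56068772), at -5.9, 11.5 and 33.5 kb from the nearest start. The dex peak at chr18:55827837-55828168 shared 266 bases with the second of these, and another dex peak, at chr18:56124003-56124334, lay 55.4 kb past the gene's end. The nearest peak to SGK1 (chr6:134490384-134496034) was 146.8 kb from a start under vehicle and 138.7 kb under dex, and that to TSC22D3 (chrX:106956452-106960291) was 1278.7 kb from an annotated start in both conditions. SCNN1A and SCNN1G had none within 500 kb under vehicle, and under dex SCNN1G had one at 227.5 kb. The peak lists give positions with no height, so the strength of binding and its change with dex were not compared.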

How the data were processed

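RNA-seq of HEK293-GR and A549 cells and IRF2BP2 ChIP-seq of HEK293-GR cells were used, with groups taken from the sample labels. The genes and lists were chosen with earlier results of these data known. For RNA, the submitters' processing notes name the tools FastQC, Trimmomatic 0.33, TopHat2, Bowtie2, HOMER and edgeR. For ChIP they name bedtools, HOMER 4.10.3, Bowtie 0.12.9 and FastQC. The build is hg19. The authors deposited FPKM (per the file headers), that is, reads divided by a transcript length and by the column's total of tags. The deposited log2 fold changes and their FDR (a p-value adjusted by the authors) were copied, not recomputed. The deposited peak score is 1 throughout and was not used. Since FPKM are not counts, no count model was run. Whole reads were recovered from FPKM, length and tags (100% of checked values within 0.03 reads) and used only for a filter of 10 reads in 3 of the 12 HEK293-GR libraries, which 15594 of 25690 genes passed.

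log2(FPKM + 0.1) was fitted with limma 3.58.1 in R 4.3.3 (trend, empirical Bayes, 4 groups in 1 fit, 8 residual degrees of freedom) for 5 contrasts, with Benjamini-Hochberg adjustment over all tested genes and a threshold of 0.05. The script was tested on simulated data. Of the lists, genes were named by rule: up to 4 per comparison with the smallest adjusted p and a log2 change of at least 0.5 (HEK293-GR), or with the largest change past an FDR of 0.05 and a mean pooled FPKM of at least 1 (A549). A gene these rules and the likeness ranking chose is not reported here. Same-numbered replicates did not deviate together (correlations from -0.38 to 0.26, 4 of 18 over 0.1), so numbers were not taken to pair samples. Between libraries of different numbers the highest correlation was 0.57, for siNON vehicle replicate 3 with a siIRF2BP2 vehicle library. Other pseudocounts, filters, scalings, transcripts, windows and fits were tried, and each library was left out in turn.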

Additional observations from a re-analysis of the deposited data

How the results depend on the processing

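The dex calls of SGK1 and SCNN1A, the knockdown calls of SGK3 and SCNN1A under dex and the fall of IRF2BP2 held under all alternatives run, and no called value of the 8 genes changed sign. In a fit of the 2 compared groups alone, the knockdown under vehicle called 0 of the 8 genes and 567 genes in all, against 3 and 2414 in the fit of 4 groups. With 1 library left out, it called 1 to 3 of the 8 genes (1 without siIRF2BP2 vehicle replicate 3) and 1161 to 4815 genes (4815 without siNON vehicle replicate 3). Under dex the knockdown then called 2 to 3 of the 8 (2 without siIRF2BP2 dex replicate 1 or 2) and 4139 to 5367 genes in all, against 4 and 6188. The dex response with siNON then called 1976 to 3909 genes against 3235. The difference of the dex responses was called for 2 genes, 22 with a pseudocount of 1, and 0 to 7 with 1 library left out. With the replicate block it was called for 0 genes. The numbers did not pair the samples, and with the block the knockdown under dex called 5480 genes and the dex response with siNON 2628, and each lost its NEDD4L call. At an FDR under 0.01, 3 of the 8 genes differed between dex and dex + TNF with siNON and 2 between siNON and siIRF2BP2 with TNF. SCNN1G is kept in both counts, although it was left out of the counts between treatments above. The share of all symbols past an FDR of 0.01 was not counted, so neither number has a background beside it. Within 500 kb, 2 of the 8 genes had a vehicle peak and 5 a dex peak, where 31.2% and 38.2% of all genes had one. The log2 ratio of pooled A549 FPKM + 0.1 moved 67 of 112 values. The added 0.1 was close to the pooled FPKM of some genes (SGK3 0.054 to 0.108, SGK1 0.138 to 0.354), while ATP1B1 was at 11.1 to 21.6. With that ratio some values not past the FDR changed sign. One was ATP1B1 for the knockdown with dex (-0.14 in the authors' deposited table, 13.7 to 14.2 pooled FPKM). All 112 values kept their call with the longest transcript, and the shortest, chosen after seeing the data, moved 2 values past the FDR. The cause of these changes was not tested. Depth limits SGK2 and vehicle SCNN1G most (1 to 12 reads per HEK293-GR library).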
